A study of Mus musculus with 31 samples.

Results

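Crhr1, Crhr2 and Crhbp are the receptors and the binding protein of corticotropin-releasing factor (CRF). They were chosen by their gene symbols in the platform annotation of the authors' processed table, which holds 12980 probes. They are 3 of the 8973 genes so named, and each was read by 1 named probe. The scanner table holds 25697 probes, and those without a name here were not searched for the 3 genes. CRF is a peptide released by neurons of the stress circuits. CRHR1 and CRHR2 are class B receptors at the cell surface that raise cyclic AMP through the stimulatory G protein Gs, and CRHBP is a secreted glycoprotein that binds CRF and urocortin 1 and keeps them from the receptors. The bed nucleus of the stria terminalis (BNST) is known for CRF neurons and CRF-responsive neurons in responses to threat.

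The tissue was BNST together with the preoptic area (POA) of MF1 mice aged 152 days, hybridised on 31 single-colour Illumina bead arrays. The groups were 8 XXY males (coded XXY.Sry), 7 XX males (XXSry), 8 XX females (XX) and 8 XY males (XY.Sry), from the Sex Chromosome Trisomy model of Klinefelter syndrome. The codes of all 3 male groups name Sry, the gene that directs testis formation, and the code of XX females does not, so that XX males have testes without a Y chromosome. Arrays are labelled as biological replicates without naming the animal behind each, and no source used here gives the hormone status at sampling. P-values therefore refer to the spread between arrays.

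The descriptions place 3 XXY males, 2 XX males, 3 XX females and 3 XY males in batch 2 and 5 of each group in batch 1. On the first principal component XX male 6, described as batch 1, lay at 27.7, among batch 2 (20.4 or more) and apart from the other batch 1 arrays (-10.8 or less). Its background intensity, taken as the median of probes with a detection p-value near 0.5, was 176, against 110 to 138 on the other batch 1 arrays and 134 to 195 in batch 2. The arrays numbered 6 of the other groups are described as batch 2. The description of XX male 6 was kept in the main fit. Xist and Eif2s3x, X-linked genes used as a check of the labels, were higher than in XY males in XXY males (log2 differences of 2.80 and 0.64), XX males (3.17 and 0.54) and XX females (2.80 and 0.58), with adjusted p from 3.71e-05 down to 4.13e-08 in limma. Of 11 markers of BNST and preoptic neurons 8 were measured, and 7 of these, the estrogen receptor gene Esr1 and the forebrain transcription factor genes Nkx2-1 and Lhx8 among them, were detected on all 31 arrays. So were 7 of 7 measured thalamic, 5 of 5 striatal and 5 of 5 choroid plexus markers. The share was lower for cortical and hippocampal (3 of 5) and meningeal (4 of 6) markers. The count is thus not particular to BNST and POA.

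Crhr1, on chromosome 11, was read by probe ILMN_2744710, which passed the detection threshold (detection p-value under 0.05) on 27 of 31 arrays. Its scanner intensity lay between 146 and 260 with a median of 176, or 1.09 to 1.65 times the background intensity of the same array. Crhr2, on chromosome 6, was read by probe ILMN_2721406 and was detected on 21 of 31 arrays, the lowest number among the probes of the authors' processed table. Its intensity lay between 135 and 293 with a median of 167, or 1.12 to 1.54 times background. Both receptor probes were thus dim on every array.

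Crhbp, on chromosome 13, was read by probe ILMN_1231710 and was detected on all 31 arrays, at intensities of 768 to 1702 with a median of 1122. These were 5.75 to 12.4 times background, so this probe stood clear of background throughout. The error from bead to bead followed the same division. The bead standard error was a median of 4.87% of the intensity for Crhr1, 4.67% for Crhr2 and 3.67% for Crhbp, but as a share of the background-corrected signal it was 14.9% for Crhr1, 14.3% for Crhr2 and 4.09% for Crhbp. The residual SD between arrays of a group after removal of batch was 0.31 for Crhr1, 0.35 for Crhr2 and 0.22 for Crhbp on the log2 scale, against a median of 0.23 over all 11712 genes and probes tested. The plot of intensity over background shows which arrays passed the detection threshold.

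**Figure D1:**
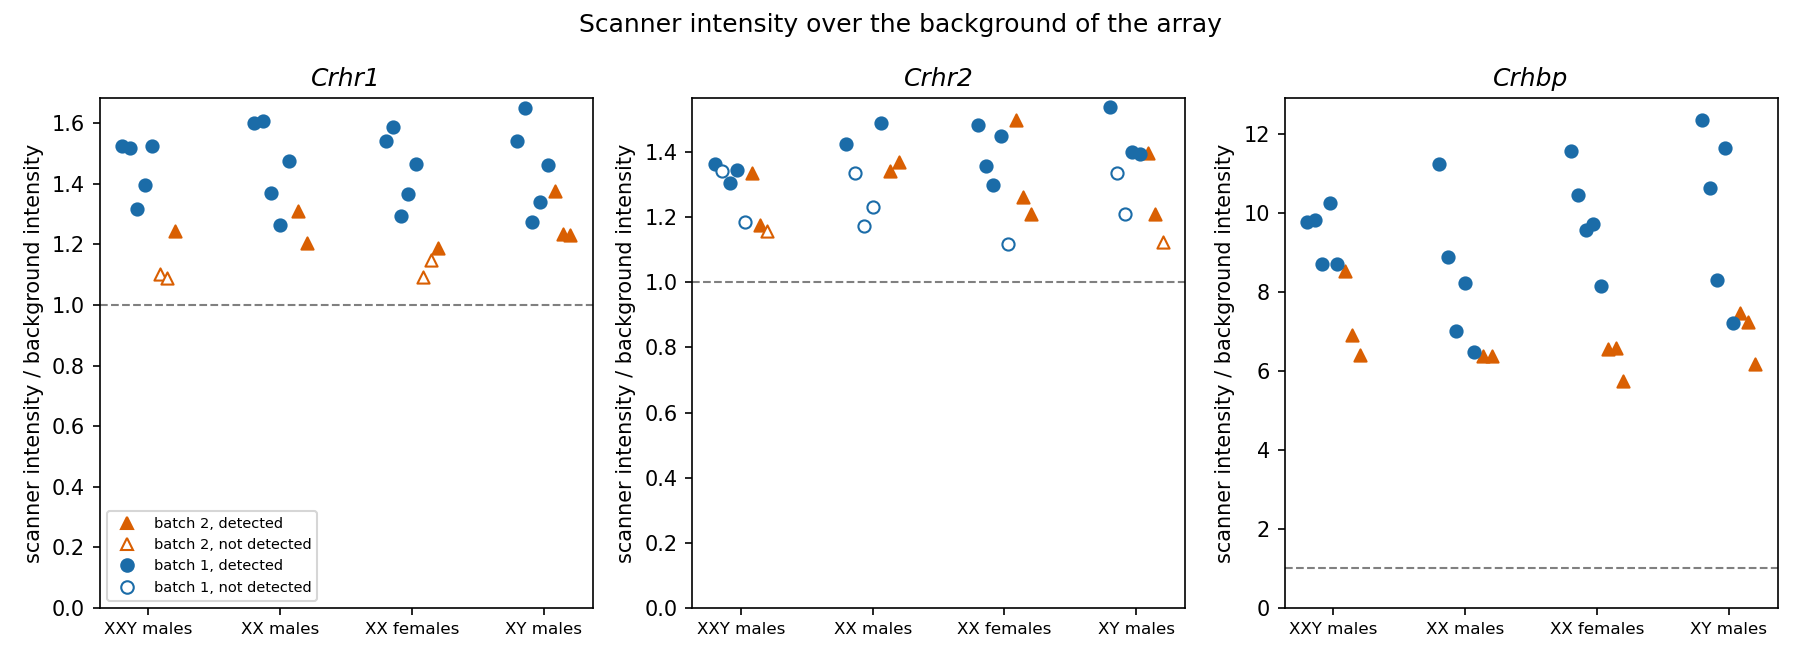
Scanner intensity of each probe divided by the background intensity of the same array (vertical axis, a ratio starting at 0) for the 4 groups; each point is 1 array, triangles are batch 2, circles batch 1, open points were not detected and the dashed line marks a ratio of 1. Crhr1 lies between 1.09 and 1.65 and Crhr2 between 1.12 and 1.54, while Crhbp lies between 5.75 and 12.4.

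The level of Crhr1, the receptor of highest affinity for CRF, overlapped among all 4 groups. Its normalized log2 signal had a lowest, median and highest value of 5.05, 5.90 and 6.43 in XXY males, 5.66, 6.01 and 6.37 in XX males, 4.99, 5.79 and 6.37 in XX females, and 5.62, 5.95 and 6.56 in XY males. The lowest arrays were XX females 6 and 7 and XXY males 6 and 7, all of batch 2, and these were the 4 arrays on which the probe was not detected. Means were 5.83 ± 0.53 in XXY males (SD, n = 8), 6.04 ± 0.30 in XX males (n = 7), 5.79 ± 0.47 in XX females (n = 8) and 5.95 ± 0.33 in XY males (n = 8). In descending order the means ran XX males, XY males, XXY males and XX females, and no neighbours in that order differed beyond their spread. Crhr1 was detected in 6 of 8 XXY males, 7 of 7 XX males, 6 of 8 XX females and 8 of 8 XY males.

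The level of Crhr2, the receptor of urocortins 2 and 3, overlapped among the groups as well. Its log2 signal had a lowest, median and highest value of 5.32, 5.70 and 5.97 in XXY males, 5.26, 5.94 and 6.29 in XX males, 5.05, 5.78 and 6.23 in XX females, and 5.19, 5.84 and 6.19 in XY males. XX female 5 held the lowest value of the 31 arrays and XX male 6 the highest. Means were 5.66 ± 0.25 in XXY males (SD, n = 8), 5.86 ± 0.40 in XX males (n = 7), 5.81 ± 0.37 in XX females (n = 8) and 5.75 ± 0.36 in XY males (n = 8), an order of XX males, XX females, XY males and XXY males with no neighbours that differed beyond their spread. It was detected in 5 of 8 XXY males, 4 of 7 XX males, 7 of 8 XX females and 5 of 8 XY males.

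Crhbp had the smallest residual SD of the 3 genes and also overlapped among the groups. Its log2 signal had a lowest, median and highest value of 9.70, 10.12 and 10.26 in XXY males, 9.40, 9.78 and 10.24 in XX males, 9.42, 10.10 and 10.27 in XX females, and 9.65, 9.93 and 10.71 in XY males. XX male 6 was the lowest of all arrays, although its scanner intensity of 1142 lay near the median of 1122, and XY male 4 was the highest. Means were 10.06 ± 0.19 in XXY males (SD, n = 8), 9.84 ± 0.28 in XX males (n = 7), 9.95 ± 0.33 in XX females (n = 8) and 10.01 ± 0.36 in XY males (n = 8). The order was XXY males, XY males, XX females and XX males, again without a difference between neighbours beyond their spread.

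**Figure D2:**
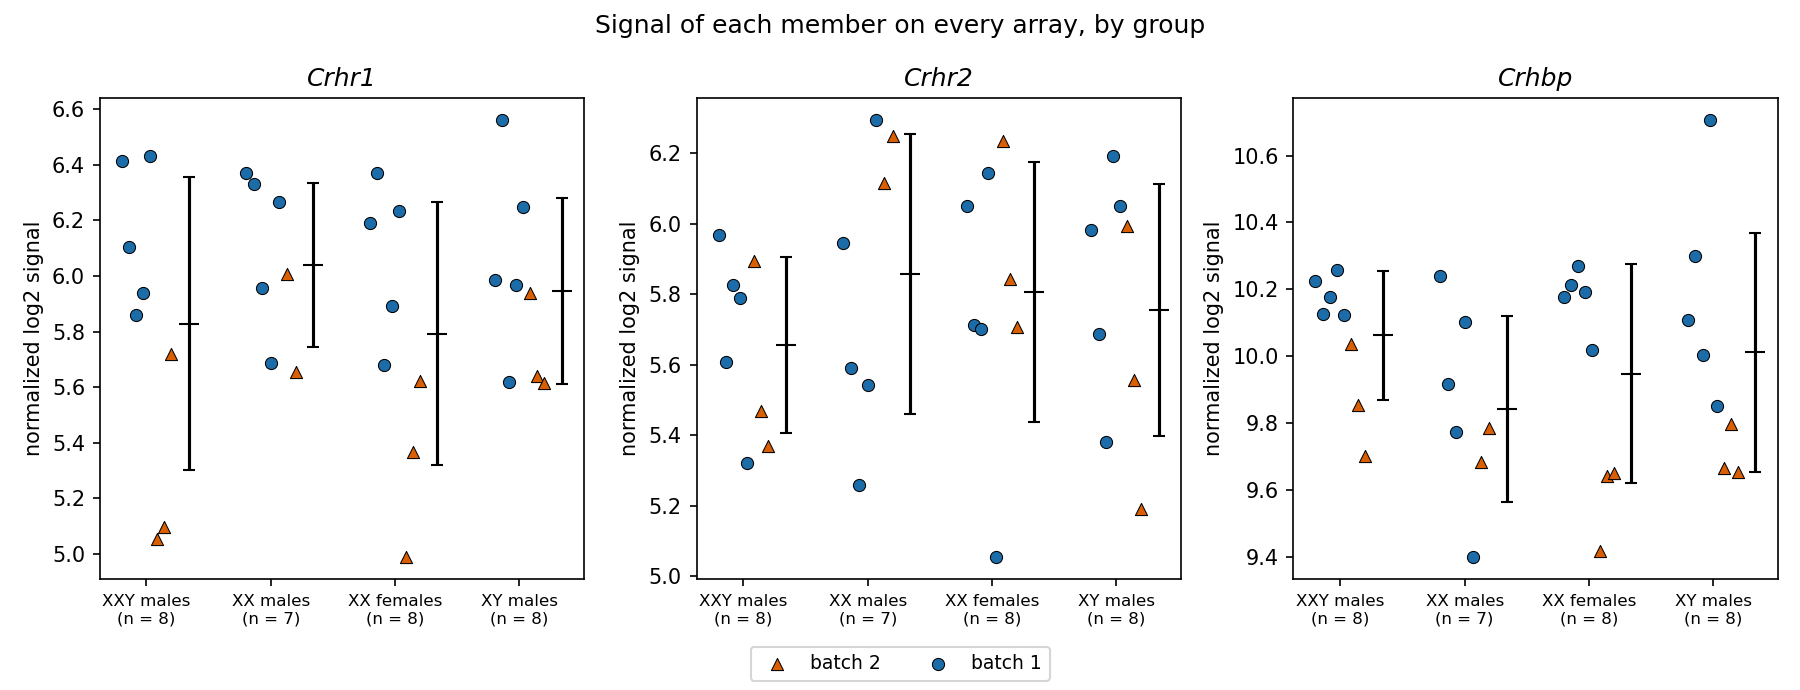
Normalized log2 signal (vertical axis, a separate range in each panel) of Crhr1, Crhr2 and Crhbp on each array of the 4 groups; triangles are batch 2, circles batch 1, and the bars give the group mean and SD. The 4 groups overlap for each gene, with group means of 5.79 to 6.04 for Crhr1, 5.66 to 5.86 for Crhr2 and 9.84 to 10.06 for Crhbp.

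XXY males against XY males addresses the effect of an added X chromosome in mice with testes. None of the 3 genes passed an adjusted p of 0.05 in limma, where 6 of 11712 genes passed (0.0512% of those tested) and 322 had an unadjusted p under 0.05. Crhr1 differed by -0.12 on the log2 scale (95% interval -0.42 to 0.18), Crhr2 by -0.10 (-0.44 to 0.25) and Crhbp by 0.05 (-0.17 to 0.27), each with adjusted p = 1.00. As folds, the intervals ran from 0.745 to 1.14 for Crhr1, from 0.735 to 1.19 for Crhr2 and from 0.891 to 1.21 for Crhbp. Within batch 2 and batch 1, the differences were -0.44 and 0.07 for Crhr1, -0.0042 and -0.16 for Crhr2, and 0.16 and -0.01 for Crhbp.

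XX males and XX females share their sex chromosomes and differ in Sry and gonads. The 3 genes did not pass here, where 3 of 11712 genes did (0.0256%). Crhr1 differed by 0.19 (-0.12 to 0.51, adjusted p = 0.807), Crhr2 by 0.05 (-0.30 to 0.41, adjusted p = 0.956) and Crhbp by -0.14 (-0.37 to 0.08, adjusted p = 0.803). Within batch 2 and batch 1 the differences were 0.51 and 0.05 for Crhr1, 0.25 and -0.0054 for Crhr2, and 0.16 and -0.29 for Crhbp, which thus had opposite signs in the batches. Without XX male 6 the Crhbp difference was -0.05. XX females against XY males gave the difference between the sexes, with 8 of 11712 genes past the threshold (0.0683%) and none of the 3. Crhr1 differed by -0.15 (-0.46 to 0.15), Crhr2 by 0.05 (-0.29 to 0.40) and Crhbp by -0.06 (-0.28 to 0.15), each with adjusted p = 1.00. Within batch 2 and batch 1 the differences were -0.41 and -0.0029 for Crhr1, 0.35 and -0.13 for Crhr2, and -0.14 and -0.02 for Crhbp.

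XX males and XY males both carry Sry and differ in their sex chromosomes. In this comparison 7 of 11712 genes passed (0.0598%) and the 3 genes did not. Within batch 2 and batch 1, Crhr1 differed by 0.10 and 0.05. Crhr1 differed by 0.04 (-0.27 to 0.36, adjusted p = 0.984), Crhr2 by 0.11 (-0.25 to 0.46, adjusted p = 0.951) and Crhbp by -0.21 (-0.43 to 0.02, adjusted p = 0.890). The Crhbp difference was -0.11 without XX male 6, and it was 0.03 in batch 2 and -0.31 in batch 1. Crhr2 differed by 0.60 in batch 2, where 2 XX males stood at 6.12 and 6.25 and 3 XY males between 5.19 and 5.99, and by -0.13 in batch 1.

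The largest difference of Crhbp was that between XXY males and XX males, which differ in the Y chromosome, at 0.26 (0.03 to 0.48, unadjusted p = 0.0277, adjusted p = 0.748). It did not pass the threshold, where 3 of 11712 genes did (0.0256%) and 767 had an unadjusted p under 0.05. The ranges overlapped, at 9.70 to 10.26 in XXY males and 9.40 to 10.24 in XX males. The difference was 0.13 in batch 2 and 0.30 in batch 1, and 0.16 without XX male 6, the lowest array for this gene. With XX male 6 counted in batch 2, the Crhbp difference was 0.20 (limma, adjusted p = 0.875). Crhr1 differed by -0.16 (-0.48 to 0.16, adjusted p = 0.834) and Crhr2 by -0.20 (-0.56 to 0.15, adjusted p = 0.811). In batch 2 these differences were -0.54 for Crhr1 and -0.60 for Crhr2, on 3 XXY males and 2 XX males, and in batch 1 they were 0.03 and -0.02.

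The study asked whether expression in this tissue was feminized. None of the 3 genes passed between XX females and XY males, so XXY males against XX females cannot show feminization of them. XXY males and XX females also differ in Sry, gonads and the Y chromosome. This comparison had 6 of 11712 genes past the threshold (0.0512%) and again none of the 3. Crhr1 differed by 0.03 (-0.27 to 0.34, adjusted p = 0.996), Crhr2 by -0.15 (-0.50 to 0.20, adjusted p = 0.977) and Crhbp by 0.11 (-0.10 to 0.33, adjusted p = 0.961). Within batch 2 and batch 1 the differences were -0.04 and 0.08 for Crhr1, -0.35 and -0.03 for Crhr2, and 0.29 and 0.0078 for Crhbp. Over all 6 comparisons, 0 of 18 tests of the 3 genes passed in limma and 1 of 18 had an unadjusted p under 0.05, near the share of all genes, which was 2.75% to 6.73% by comparison. The ranges of the groups overlapped in 18 of 18, as they did for 11704 to 11710 of all 11712 genes in each comparison. Each of the 18 differences moved by over 1.5 times or changed sign when 1 array was left out, and in XXY males minus XY males Crhr1 ranged from -0.20 to -0.06, Crhr2 from -0.19 to -0.03 and Crhbp from 0.0053 to 0.13. The 95% intervals reached folds of at most 1.42 and at least 0.719 for Crhr1, 1.38 and 0.677 for Crhr2, and 1.397 and 0.742 for Crhbp, so that differences inside these bounds were not resolved.

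**Figure D3:**
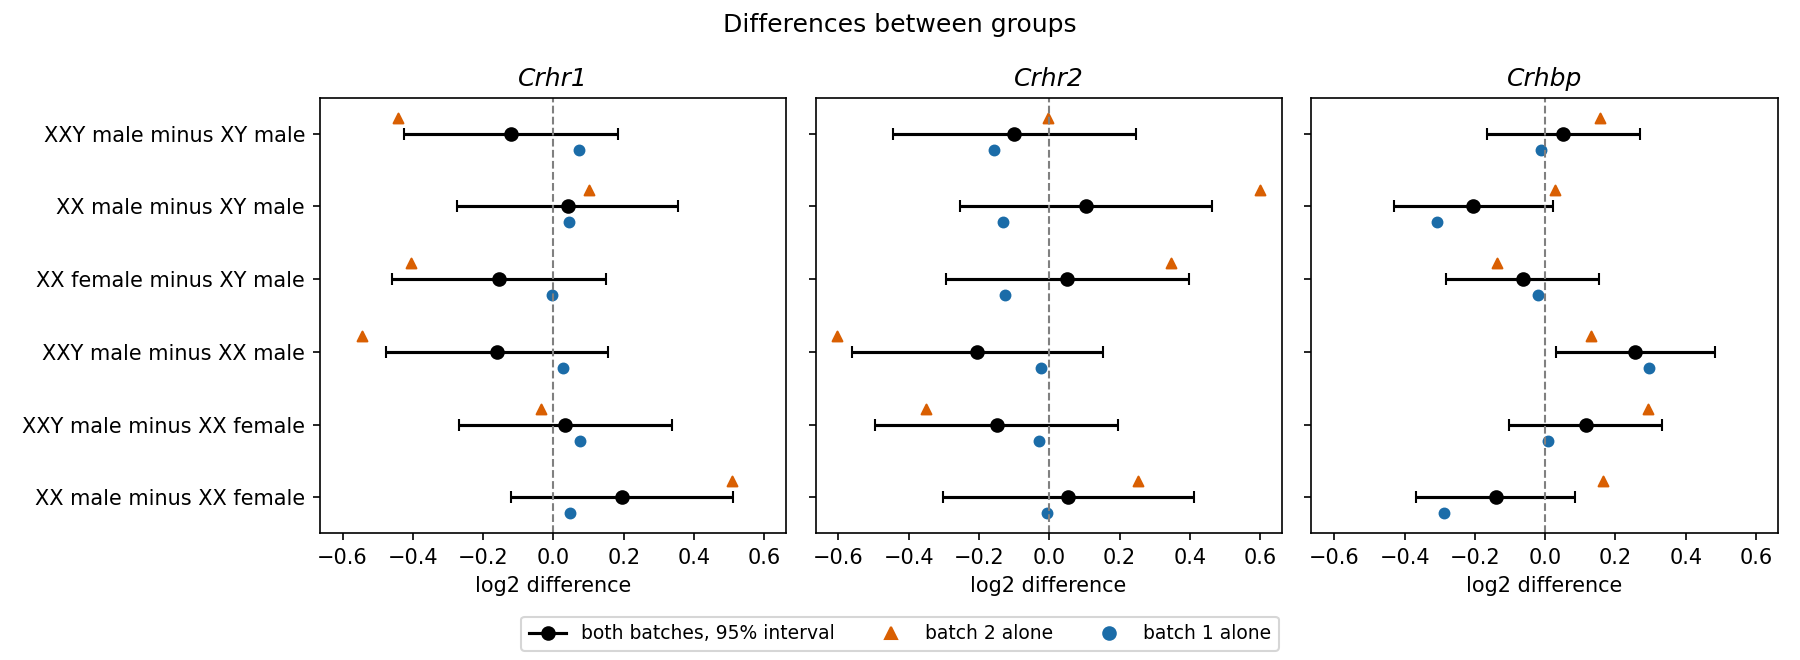
Log2 difference between groups (horizontal axis, first-named group minus second) for Crhr1, Crhr2 and Crhbp in 6 comparisons; black points and bars are the limma estimates over both batches with 95% intervals, triangles are batch 2 alone and circles batch 1 alone. The intervals of 17 of the 18 estimates include 0, the exception being Crhbp in XXY males minus XX males at 0.26 (0.03 to 0.48).

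A test of any difference among the 4 groups gave adjusted p = 0.951 for Crhr1, 0.972 for Crhr2 and 0.943 for Crhbp (limma F test), where 10 of 11712 genes passed (0.0854%). A test of whether the group differences changed with batch gave unadjusted p = 0.187 for Crhr1, 0.199 for Crhr2 and 0.243 for Crhbp, and adjusted p = 1.00 each. It called 0 of 11712 genes (0%) in limma, and 326 had an unadjusted p under 0.05. The opposite signs of several differences in the batches are therefore values without a passed test.

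The batches themselves differed for Crhr1 and Crhbp. Crhr1 averaged 5.52 ± 0.35 in batch 2 (SD, n = 11) and 6.11 ± 0.28 in batch 1 (SD, n = 20), and fell by 0.58 on the log2 scale in the fit with group (limma, adjusted p = 0.000117, interval -0.81 to -0.35). Crhbp averaged 9.72 ± 0.15 in batch 2 and 10.11 ± 0.26 in batch 1, and fell by 0.41 (adjusted p = 0.000152, interval -0.57 to -0.24). Crhr2 averaged 5.78 ± 0.36 in batch 2 and 5.76 ± 0.33 in batch 1, a difference of 0.04 (adjusted p = 0.835, interval -0.22 to 0.30). Such a difference was common, since 44.7% of all genes tested passed between the batches, 21.5% of all lower in batch 2 and 23.2% higher. Crhr1 stood at percentile 6.32 and Crhbp at 10.3 of all batch differences, from the lowest up.

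The scanner intensity of Crhr1 had a median of 176 in each batch. The background intensity had medians of 146 in batch 2 and 122 in batch 1, and the Crhr1 intensity was a median of 1.21 times background in batch 2 and 1.47 times in batch 1. Without background correction the Crhr1 difference was -0.18 (adjusted p = 0.000281). The Crhbp intensity had medians of 949 in batch 2 and 1169 in batch 1, and its difference without background correction was -0.36 (adjusted p = 9.44e-05). The part of the background in the Crhr1 difference was not tested further.

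By group, Crhr1 was lower in batch 2 than in batch 1 by 0.86 in XXY males, 0.29 in XX males, 0.75 in XX females and 0.35 in XY males. The 2 batches did not overlap in XXY males (5.05 to 5.72 in batch 2, 5.86 to 6.43 in batch 1) nor in XX females (4.99 to 5.62 and 5.68 to 6.37), and they did in the other two groups. Crhbp was lower by 0.32 in XXY males, 0.15 in XX males, 0.60 in XX females and 0.49 in XY males, without overlap in XXY males, XX females and XY males. In XX males the batches overlapped, with XX male 6 at 9.40 below the batch 2 arrays at 9.68 and 9.78. XX male 3, also of batch 1, lay between these batch 2 arrays at 9.77. Overlap of the batches was not counted over all genes, of which 44.7% passed between the batches. In the authors' processed values the differences between batches were -0.19 for Crhr1 (adjusted p = 1.00), -0.11 for Crhr2 and -0.04 for Crhbp, none past the threshold. How batch was treated in those values is not given, so they cannot show whether the batch differences depend on processing.

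**Figure D4:**
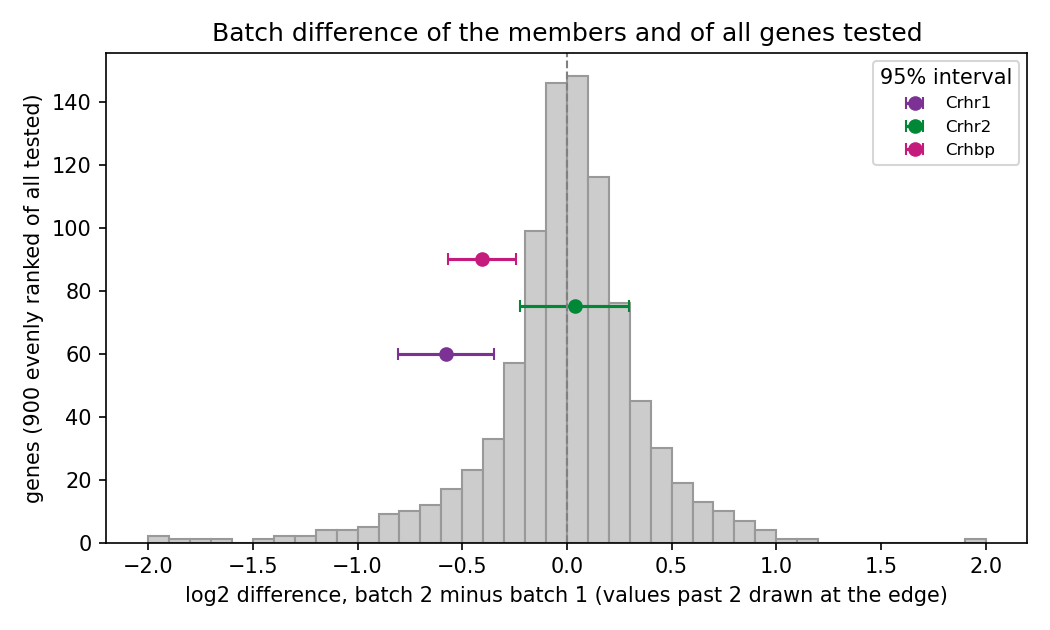
Log2 difference between batch 2 and batch 1 (horizontal axis) for all genes tested, as a histogram of genes spaced evenly along the ranking (vertical axis, number of genes), with the 3 genes as points with 95% intervals at arbitrary heights. Crhr1 at -0.58 and Crhbp at -0.41 lie left of 0 with their whole intervals, and Crhr2 at 0.04 lies at percentile 54.1 of all genes.

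No pair of the 3 genes correlated past the threshold over the arrays. After removal of batch, Crhr1 and Crhr2 correlated at Pearson r = 0.0358 (permutation p = 0.848) and Spearman rho = 0.0470 (p = 0.802), Crhr1 and Crhbp at r = -0.0930 (p = 0.624) and rho = -0.0456 (p = 0.807), and Crhr2 and Crhbp at r = 0.0332 (p = 0.861) and rho = 0.115 (p = 0.535), over 31 arrays. After adjustment over the 3 pairs, p was 0.861 for each r and 0.807 for each rho. Within batch 2 and batch 1, r was -0.0216 and 0.0762 for Crhr1 and Crhr2, -0.131 and -0.0844 for Crhr1 and Crhbp, and -0.193 and 0.112 for Crhr2 and Crhbp. Without the 2 arrays farthest from the median of the first gene, r was 0.0668, -0.239 and -0.0163 for these pairs in that order. With the batches left in, Crhr1 and Crhbp, both lower in batch 2, gave r = 0.3995 (adjusted permutation p = 0.0752) and rho = 0.456 (adjusted permutation p = 0.0297).

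A dissected piece of BNST and POA can hold neighbouring tissue, so the 3 genes were set beside 13 lists of cell type and region markers, 39 relations in all, with no list of pituitary markers since 0 of 4 were measured. Fewer cells of a type and less RNA per cell cannot be told apart in such tissue. Of the 39, 1 passed after adjustment, that of Crhbp with the mean of the 6 astrocyte markers Aqp4, Gfap, Aldh1l1, Slc1a3, Slc1a2 and Gja1, which include a water channel, an intermediate filament and glutamate transporters. Over 31 arrays r was 0.613 (permutation p = 0.0009, adjusted p = 0.0351) and rho was 0.421 (p = 0.0184, adjusted p = 0.240). The relation rested on few arrays, since r was 0.279 without the 2 arrays farthest from the median of the list.

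XX male 6 stood alone in it, with an astrocyte list mean of -0.49 and the lowest Crhbp, while the other arrays had list means of -0.20 to 0.26. Without XX male 6, r was 0.370 (adjusted p = 0.337), and with it counted in batch 2, r was 0.395 (adjusted p = 0.275). Within batch 2 r was 0.592 (adjusted p = 0.256) and within batch 1, with XX male 6, it was 0.631 (adjusted p = 0.369). All 6 astrocyte markers were detected on all 31 arrays, and the list means ranged from -0.03 to 0.26 in XXY males, -0.49 to 0.10 in XX males, -0.14 to 0.12 in XX females and -0.17 to 0.20 in XY males. Their part in the Crhbp values was not tested.

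**Figure D5:**
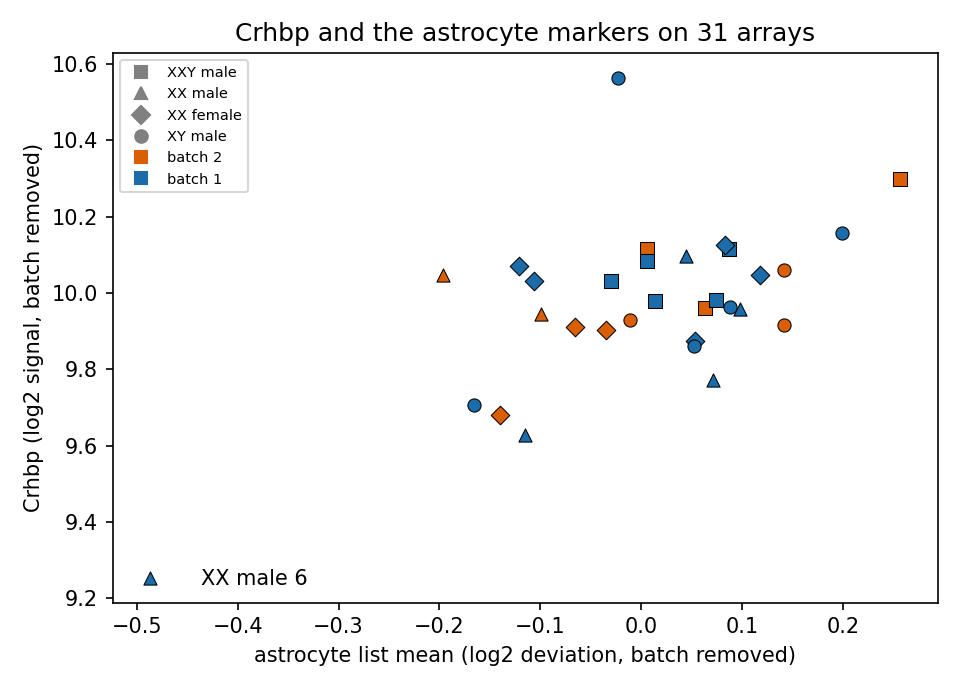
Crhbp log2 signal (vertical axis) against the mean log2 deviation of 6 astrocyte markers (horizontal axis), both after removal of the batch difference; each point is 1 of 31 arrays, the shape gives the group and the colour the batch. XX male 6 lies apart at the lower left, and r is 0.613 with it and 0.370 without it.

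Of the remaining relations, Crhr2 with the astrocyte list had r = -0.453 (adjusted permutation p = 0.127; rho = -0.437), -0.628 in batch 2 and -0.363 in batch 1. Crhbp with the 3 measured markers of lateral and tuberal hypothalamus, Hcrt, Pmch and Cartpt, had r = 0.445 (adjusted permutation p = 0.127; rho = 0.460), 0.515 in batch 2, 0.431 in batch 1 and 0.541 without XX male 6. Neither passed. With the 8 measured markers of BNST and preoptic neurons r was -0.0557 for Crhr1, 0.0056 for Crhr2 and -0.136 for Crhbp. With the choroid plexus list r was 0.330 for Crhr1, -0.179 for Crhr2 and -0.347 for Crhbp, and with the cortical and hippocampal list 0.288, 0.261 and 0.193 in the same order.

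The named genes of most similar pattern were taken by Pearson r over 31 arrays after removal of batch, among 8972 named genes. They serve as a description of arrays that share tissue piece, batch and signal level. As the extremes of a ranking, they were not set against a chance level of r. For Crhr1 they were Lrrc30 (r = 0.589), Ier5l (0.586), Spsb3 (0.577), 1700024G13Rik (0.575) and Has1 (0.565), which encodes a hyaluronan synthase, and the most opposed were Cyb561, which encodes a cytochrome b of secretory vesicle membranes (-0.624), Spr, which encodes an enzyme of tetrahydrobiopterin synthesis (-0.566), and the protocadherin gene Pcdhac2 (-0.549). Of these, 4 of 5 and 2 of 3 were still among the most similar and most opposed without XX male 6.

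For Crhr2 they were Dgcr8, which encodes a partner of Drosha in microRNA processing (r = 0.719, and 0.835 in batch 2 and 0.650 in batch 1), Slc25a39 (0.661), the deubiquitinase gene Bap1 (0.625), Klhl25 (0.597) and Phf24 (0.596). The most opposed were Tsc22d1 (-0.606), the metal-responsive transcription factor gene Mtf1 (-0.599) and Lypla2 (-0.575). Without XX male 6, 3 of 5 and 0 of 3 were still listed, and Dgcr8 stood second at 0.689. For Crhbp they were Tmem237 (0.731), the protein phosphatase 1 catalytic subunit gene Ppp1ca (0.728), the kinase gene Oxsr1 (0.715), Cacng7 (0.694) and Zfp280d (0.690). The most opposed were Os9, of endoplasmic reticulum quality control (-0.760), the sodium channel subunit gene Scn2b (-0.715) and the tubulin acetyltransferase gene Atat1 (-0.713). Without XX male 6, 0 of 5 and 1 of 3 were still listed, the 1 being Os9 at -0.615.

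The ligands were represented by Ucn3, which encodes urocortin 3, a selective ligand of CRHR2. Crh, Ucn and Ucn2 are not analysed here. Ucn3, on chromosome 13, was detected on all 31 arrays at a log2 signal of 6.87 ± 0.58 in XXY males (SD, n = 8), 7.196 ± 0.36 in XX males (n = 7), 6.93 ± 0.43 in XX females (n = 8) and 6.95 ± 0.22 in XY males (n = 8). The highest array was XX male 2 at 7.81 and the lowest XXY male 3 at 5.93, so the groups overlapped. Its largest difference, XXY males minus XX males, was -0.33 (SE 0.212, adjusted p = 0.776), and between the batches it differed by 0.05 (adjusted p = 0.813).

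In 6 lists of related genes, written with earlier results of these data known, 39 of 69 genes were measured and 0 passed in limma in any comparison between groups, where 0.0256% to 0.0683% of all genes tested passed, so that a count of 0 among 39 is near that background. Among 17 measured genes of Gs, cyclic AMP and protein kinase A, the signalling route of both receptors, the smallest p was that of Crem, a transcription factor gene of the cyclic AMP response, at 7.44 ± 0.24 in XX females (SD, n = 8) and 7.02 ± 0.27 in XY males (n = 8), a difference of 0.42 (SE 0.0952, unadjusted p = 0.000122, adjusted p = 0.159). The median of the list was -0.03 in that comparison and that of all genes -0.00057. In XXY males minus XY males the list had a median of -0.01, beside 0.0029 for all genes, and adenylate cyclase gene Adcy1 differed by -0.47 (SE 0.241, adjusted p = 1.00). Gnal, a gene for a stimulatory G protein alpha subunit, differed by 0.32 in XX males minus XY males (SE 0.150, adjusted p = 0.874).

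Among 7 measured genes of the Gq and ERK route, Plcb4, a phospholipase C gene, differed by -0.58 in XX males minus XX females (SE 0.176, adjusted p = 0.548) and Gnaq, the Gq alpha subunit gene, by 0.54 in XXY males minus XX males (SE 0.187, adjusted p = 0.746), while the MAP kinase kinase gene Map2k1 differed by 0.34 in XX females minus XY males (SE 0.167, adjusted p = 1.00). Among 4 measured genes of receptor desensitisation, the kinase gene Grk6 differed by -0.20 (SE 0.0963) and the arrestin gene Arrb1 by -0.24 (SE 0.121) in XXY males minus XX males, each with adjusted p = 0.752, and the arrestin gene Arrb2 by 0.08 in XX males minus XX females (SE 0.0868, adjusted p = 0.847). Of 7 measured partners in the stress axis, the vasopressin receptor gene Avpr1a differed by 0.35 (SE 0.150) and Pomc, the precursor gene of corticotropin, by -1.67 (SE 0.722) in XX males minus XY males, each with adjusted p = 0.874, and Hsd11b1, which encodes a glucocorticoid-activating enzyme, by 0.29 in XXY males minus XX males (SE 0.136, adjusted p = 0.752). Of 3 measured class B receptors, the parathyroid hormone receptor gene Pth1r differed by 0.34 in XX males minus XX females (SE 0.145, adjusted p = 0.719) and the PACAP receptor gene Adcyap1r1 by 0.27 in XXY males minus XX males (SE 0.132, adjusted p = 0.752), and the calcitonin receptor gene Calcr by 0.195 in XX males minus XY males (SE 0.224, adjusted p = 0.933).

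Receptor signals of arrays of the same replicate number were close in some sets and wide in others, a pattern looked at after the data had been seen and with XX male 6 left out. Crhr2 lay between 5.94 and 6.05 on the 4 arrays numbered 1, and between 5.59 and 5.71 on the 4 numbered 2, each set holding all 4 groups, but between 5.05 and 6.05 on the 4 numbered 5 and between 5.19 and 6.25 on the 4 numbered 8. Crhr1 lay between 5.62 and 5.96 on the 4 arrays numbered 3, between 6.11 and 6.56 on the 4 numbered 2, and between 4.99 and 5.94 on the 3 numbered 6. In a limma F test of the numbers within batches, unadjusted p was 0.0823 for Crhr1, 0.0335 for Crhr2 and 0.278 for Crhbp, and adjusted p was 0.272, 0.169 and 0.504 in the same order, where 877 of 11712 genes (7.49%) passed. What a replicate number stands for is not given in the sources used here.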

How the data were processed

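The deposited scanner table holds a mean bead intensity per probe and array on a linear scale and a detection p-value, per the file headers. It also holds the bead standard error, an intensity, and the number of beads, a count, as deposited. The authors also deposited log2 values for 12980 probes, all detected on 21 or more arrays, with a median of 8.65 in each column. How batch was treated in them is not given in the sources used here. The submitters' processing notes list limma.

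Intensities were background-corrected from the detection p-values with neqc (offset 16), quantile-normalized and put on the log2 scale with limma 3.58.1 in R 4.3.3. A probe was kept where 7 or more arrays detected it at 0.05, which held for 14989. Names came from the platform annotation of the processed table, updated through RefSeq (GRCm38.p6), which gave the chromosomes: 12250 probes had 1 symbol, 0 had several, and 1 named probe was not matched. The brightest probe stood for a gene, which left 8973 named genes and 2739 unnamed probes.

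All 31 arrays entered 1 limma fit of group and batch, with two-sided moderated tests, Benjamini-Hochberg adjustment over all 11712 tests at 0.05, and 95% intervals. Adjusted p-values are from this fit unless named otherwise. Correlations used 100000 permutations, two-sided. The fit was tested on simulated data. The number of arrays limits the precision. Genes named are the 3 genes, the ligands, the 3 genes of smallest p per related list, and the 5 most similar and 3 most opposed genes of each. The genes and lists were chosen with earlier results of these data known. Alternatives covered background, scaling, filter, batch, weights, the authors' values and each array left out.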

Additional observations from a re-analysis of the deposited data

Results flagged for a closer look

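Crhr2 in XX female 5, at a log2 signal of 5.05, lay far from the other XX females, which ranged from 5.70 to 6.23. The array did not pass the detection threshold for this probe (detection p-value 0.184), and its 21 beads were the lowest number of any array for Crhr2. This was the only such value among 16 sets of group values examined for Crhr1, Crhr2, Crhbp and Ucn3. Chance flags about 1 in 20, so 1 flag among 16 is near that share. Without this array the Crhr2 difference of XX females minus XY males was 0.16 and that of XX males minus XX females turned to -0.06, neither past the threshold.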

How the results depend on the processing

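Over 18 differences of the 3 genes between groups, 0 of 186 values from 11 alternatives and 0 of 558 values with 1 array left out passed the threshold, with adjusted p of at least 0.473. The sign turned in 1 of the 186, Crhr2 in XX males minus XX females, at -0.029 with array weights. Sizes were less stable. Without background correction the 12 receptor differences were 2.79 to 3.52 times smaller, with Crhr1 at -0.037 and Crhr2 at -0.031 in XXY males minus XY males, and the 6 of Crhbp 1.13 to 1.20 times smaller. Leaving out 1 array turned the sign of some differences, whose ranges were -0.042 to 0.126 for Crhr1 in XX males minus XY males, -0.038 to 0.159 for Crhr2 and -0.11 to 0.016 for Crhbp in XX females minus XY males, -0.033 to 0.097 for Crhr1 in XXY males minus XX females, -0.058 to 0.151 for Crhr2 in XX males minus XX females, and -0.0094 to 0.101 for Crhr2 between batches. Same-numbered arrays of different groups correlated at -0.24 to 0.31 after removal of group and batch, with a median of 0.04 and 14 of 45 pairs over 0.1, while arrays of different number in the same batch had a median of -0.08 and 30 of 153 over 0.1. The test of the numbers within batches, without XX male 6, passed for 877 of 11712 genes (7.49%). Part of the genes thus differed by number beyond group and batch. What a number stands for is not given, and the main fit held no term for the number. Of 31 arrays, 7 correlated best with an array of their own number, and no chance share was computed for this count. With the replicate number as a block in place of batch, no call of the 3 genes changed, the counts of genes past the threshold were 4, 6, 11, 3, 8 and 2 (XXY, XX males and XX females minus XY males, XXY males minus XX males and minus XX females, XX males minus XX females), and the Crhbp difference of XXY males minus XX males was 0.17 (adjusted p = 0.677). The batch differences of Crhr1 and Crhbp passed in every alternative run except the authors' processed values, at -0.19 and -0.043, where that of Crhr2 turned to -0.11. That setting cannot decide whether the differences depend on processing, since how batch was treated in those values is not given. Counts of genes past the threshold moved by over 1.5 times with probes detected on all 31 arrays, and the cause was not tested. They fell to 2 in XX males minus XY males, 3 in XX females minus XY males and 1 in XX males minus XX females. They fell to 0 in XXY males minus XX males and to 0 in XXY males minus XX females. They moved to 1 in XXY males minus XX males with the authors' values and to 3 in XXY males minus XY males with only the 2 groups compared.

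The correlation of Crhr1 and Crhr2 turned to -0.0216 in batch 2, -0.0038 with batch left in and -0.0110 with cyclic loess, that of Crhr2 and Crhbp to -0.193, -0.0022 and -0.0468 in the same settings and -0.0163 without the 2 farthest arrays, and that of Crhr1 and Crhbp to 0.3995 with batch left in. No r of these passed, and the cause was not tested. The correlation of Crhbp with the astrocyte list, with alternatives chosen after seeing the data, no longer passed in batch 1 (0.631), batch 2 (0.592), with group means removed (0.525), with the authors' values (0.406), without XX male 6 (0.370), with it counted in batch 2 (0.395) or with replicate number means removed (0.390). No second named probe of the 3 genes could be tried. The receptor probes were near background, which limits what their values can show.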
